A study of Mus musculus with 7 samples.

Results

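The genes described here encode proteins that carry the electrical impulse through the heart, namely an auxiliary subunit of the sodium channel (Scn4b), 3 connexins of cardiac gap junctions (Gja1, Gja5 and Gjc1) and 2 pacemaker channels (Hcn2 and Hcn4). They were chosen by name, with earlier results of these data known. Every probe set whose only annotated gene is one of them was taken. This gave 11 of the 45037 probe sets for 5 of the 6 genes, with 1 probe set for Scn4b, 6 for Gja1, 1 for Gja5, 2 for Gjc1 and 1 for Hcn2. Hcn4 had 0 and was not analysed here. RNA came from whole hearts of 7 male mice aged 7 months, each heart on its own Affymetrix array. Dystrophin was lacking in all 7 through the mdx mutation, a model of Duchenne muscular dystrophy, and floxed alleles of IKKβ, the kinase that activates NF-κB, were likewise common to all. The 4 mdx HRTΔIKKβ mice also carried Cre recombinase under the Myh6 promoter, which is active in cardiomyocytes, so that IKKβ was deleted there. The 3 mdx IKKβf/f mice were littermates without that Cre. No heart with intact dystrophin was analysed here.

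In the heart, sodium channels open at the start of each action potential and connexins join neighbouring cells so that the current can pass on. Cx43, the product of Gja1, is the main connexin of the working ventricle. Cx40 (Gja5) is found in atria, in the fast conduction system and in arterial endothelium, and Cx45 (Gjc1) in the nodes and conduction system and, at low levels, elsewhere. HCN channels open on hyperpolarization and carry the pacemaker current. In whole-heart RNA, fewer cells of a type and less RNA per cell cannot be told apart, and transcripts of the small conduction system are diluted by the working muscle.

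The study asked how NF-κB in cardiomyocytes affects gene expression, so the upstream sequence of these genes was searched for the NF-κB consensus motif, for the AP-1 motif TGAGTCA and for the T-box motif AGGTGTGA, on both strands. The 250 bases before the start were found in RefSeq's promoter table (GRCm38.p6) for Scn4b, Gja1, Gja5, Hcn2 and Hcn4. The 3 shown are those of the main ventricular connexin and of the pair of genes with the smallest p-values below, with AP-1 matches in capitals. They lie on the plus strand at chr10:56377050-56377299, chr3:97032152-97032401 and chr10:79716384-79716633.
Gja1: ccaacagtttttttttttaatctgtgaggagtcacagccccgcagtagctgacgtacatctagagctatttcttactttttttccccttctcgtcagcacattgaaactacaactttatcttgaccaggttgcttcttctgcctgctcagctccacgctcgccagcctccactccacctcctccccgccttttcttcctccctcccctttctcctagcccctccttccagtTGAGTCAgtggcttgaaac
Gja5: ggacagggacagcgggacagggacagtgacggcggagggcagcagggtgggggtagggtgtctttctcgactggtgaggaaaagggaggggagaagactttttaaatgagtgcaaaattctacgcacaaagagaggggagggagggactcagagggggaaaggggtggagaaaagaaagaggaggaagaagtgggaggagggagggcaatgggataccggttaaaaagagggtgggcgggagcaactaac
Hcn2: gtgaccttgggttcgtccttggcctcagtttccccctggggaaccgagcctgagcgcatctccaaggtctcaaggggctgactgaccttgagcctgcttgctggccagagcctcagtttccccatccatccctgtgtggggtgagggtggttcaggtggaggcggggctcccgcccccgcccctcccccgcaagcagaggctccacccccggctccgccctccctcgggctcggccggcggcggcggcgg
The AP-1 motif was found once, beginning 19 bases before the start of Gja1. The NF-κB and T-box motifs were found in none of the 5 sequences. Of all 32851 upstream sequences of this length, 3.9% held the NF-κB motif, 4.46% AP-1 and 1.12% the T-box motif. A match is only a description of these letters, and the absence of one says nothing about binding elsewhere.

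Values are log2 RMA values, which are array brightness on a log2 scale after the authors' normalization, and each difference is the mdx HRTΔIKKβ mean less the mdx IKKβf/f mean, with limma's standard error. The number of arrays limits the precision of each value. The array medians ran from 6.73 to 6.75, and the 10 ventricular cardiomyocyte markers were bright (means from 13.84 to 15.05) and differed by -0.11 to 0.04 between the groups. Of these markers, 9 had a lower mean in mdx HRTΔIKKβ hearts, and the brightest lay close to the array maxima (15.06 to 15.09). Ikbkb encodes IKKβ. Its brightest probe set had a mean of 8.72 ± 0.19 in mdx HRTΔIKKβ hearts and 8.90 ± 0.11 in mdx IKKβf/f hearts (SD). The difference was -0.18 (unadjusted p = 0.137 in limma), the largest among the Ikbkb probe sets. Its other probe sets differed by -0.02, -0.07, -0.08 and 0.02, the last with a mean of 5.45 over all hearts. The sources used here do not say whether any of these probe sets lies in the deleted part. Some hearts stood apart by markers of other tissue. The score of a list in a heart averages its genes after each gene's log2 values were centred over the 7 hearts. For the ventricular markers it ran from -0.019 to -0.0016 in mdx HRTΔIKKβ hearts and from 0.0067 to 0.031 in mdx IKKβf/f hearts. The score of 10 fast skeletal muscle genes was 4.61 in mdx IKKβf/f replicate 1, against -1.54 to 0.88 in the other 6 hearts. The score of 6 lung and airway genes was 2.52 in mdx HRTΔIKKβ replicate 2 and at most 0.52 elsewhere, and those of 7 lymphocyte and neutrophil genes (2.52) and 4 adipocyte genes (1.57) were also highest there. Of the lymphocyte list, the immunoglobulin gene Ighm had values of 10.68, 13.55, 12.49 and 11.73 in mdx HRTΔIKKβ replicates 1 to 4, against 10.04, 8.28 and 8.26 in mdx IKKβf/f replicates 1 to 3 (adjusted p = 0.789 in limma). The score of 10 smooth muscle and pericyte genes was 0.69 in mdx IKKβf/f replicate 3 and below 0 in the other 6 hearts. The score of 8 atrial markers ran from -0.26 to 1.05 in mdx HRTΔIKKβ hearts and was 0.36, -1.67 and -0.30 in mdx IKKβf/f replicates 1, 2 and 3. All 9 macrophage markers had a higher mean (median 0.28), and their score ran from -0.08 to 0.25 in mdx HRTΔIKKβ hearts and from -0.27 to -0.11 in mdx IKKβf/f hearts. The part of these other cell types in the results below was not tested.

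The differences of the 11 probe sets lay between -0.20 and 0.26, and none reached 1.5-fold (0.58 on the log2 scale), a size that 1.03% of all probe sets reached. The connexin gene Gja5 had the largest positive difference, and Scn4b and the pacemaker gene Hcn2 had the largest negative ones, while the probe sets of Gja1 differed by -0.02 to 0.09. After Benjamini-Hochberg adjustment over all probe sets, limma's test passed none of the 11 (adjusted p from 0.796 to 0.9996), and 0% of all probe sets did. At an unadjusted p of 0.05, limma counted 1 higher (Gja5) and 1 lower (Hcn2), where the background was 6.07% of all probe sets, with 3.31% higher and 2.76% lower. The methods' t-test counted 1 before adjustment (Gja5), and 2086 of all 45037 probe sets. After adjustment it counted 0, as over all probe sets. In 0 of the 11 were the groups free of overlap, against 5.44% of all probe sets. A higher mean in mdx HRTΔIKKβ hearts was found in 6 of the 11 and a lower one in 5, where all probe sets gave 47.6% and 52.4%. The 95% interval lay inside 1.5-fold in both directions for 10 of the 11 probe sets, Scn4b being the exception.

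**Figure D1:**
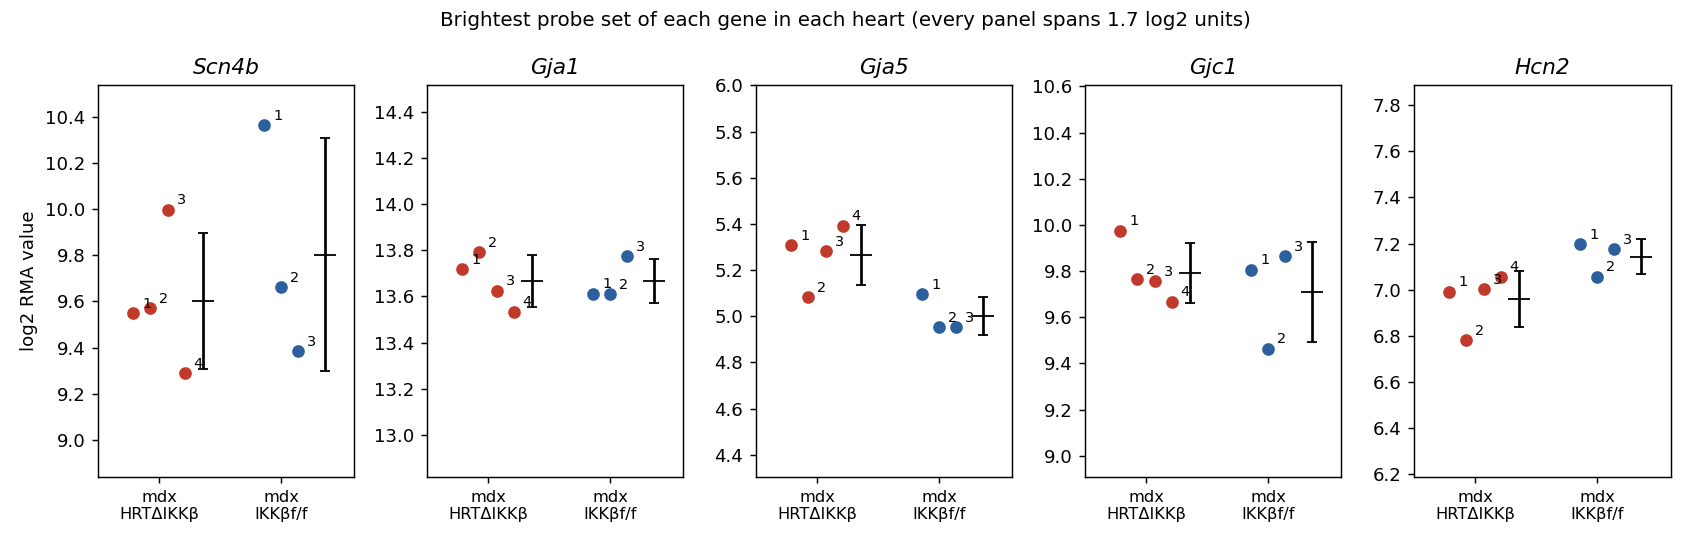
Log2 RMA value (y axis, each panel spanning 1.7 units) of the brightest probe set of each gene in 4 mdx HRTΔIKKβ hearts (red) and 3 mdx IKKβf/f hearts (blue). Small numbers are replicates and black bars are mean ± SD. Scn4b spreads most, with mdx IKKβf/f replicate 1 at the top (10.36), and the groups overlap in every panel.

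Scn4b encodes an auxiliary beta subunit that binds the pore-forming subunit of the sodium channel and alters its gating. It had log2 values of 9.55, 9.57, 9.998 and 9.29 in mdx HRTΔIKKβ replicates 1 to 4, against 10.36, 9.66 and 9.39 in mdx IKKβf/f replicates 1 to 3. The groups overlapped, and the highest heart of each group stood above the rest. The means were 9.60 ± 0.29 in mdx HRTΔIKKβ hearts (SD, n = 4) and 9.80 ± 0.50 in mdx IKKβf/f hearts (SD, n = 3), a difference of -0.20 ± 0.25 that did not pass (limma, adjusted p = 0.872). The spread within groups (0.39) was greater than for 97.2% of all probe sets, whose median was 0.11. The 95% interval of the ratio ran from 0.584 to 1.29. The highest value came from mdx IKKβf/f replicate 1, the heart with the skeletal muscle score of 4.61, and without that heart the difference was 0.08. The second highest value (9.998) came from mdx HRTΔIKKβ replicate 3, whose skeletal muscle score was -1.37. The part of skeletal muscle RNA in the Scn4b value was not tested.

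Gja1, the main ventricular connexin gene, was measured by 6 probe sets. The brightest had values of 13.72, 13.79, 13.62 and 13.53 in mdx HRTΔIKKβ replicates 1 to 4, against 13.61, 13.61 and 13.77 in mdx IKKβf/f replicates 1 to 3. All 7 hearts lay within 0.26 log2 units and the control hearts lay inside the range of the mdx HRTΔIKKβ hearts. The difference was 0.00029 ± 0.08 (limma, adjusted p = 0.9996), with a 95% interval of the ratio from 0.882 to 1.13. For the remaining 5 probe sets the differences were -0.02, -0.0085, 0.05, 0.09 and 0.02, and their intervals of the ratio stayed between 0.828 and 1.24. The dimmest was 1438973_x_at, with a mean of 6.57. The probe sets ordered the hearts in a like way, with mdx HRTΔIKKβ replicate 1 or 2 highest in 5 of the 6 and mdx HRTΔIKKβ replicate 4 lowest in 4. Among 5 of the 6 probe sets the correlation over the 7 hearts was 0.69 to 0.96, while 1415801_at correlated with them at 0.27 to 0.61. These probe sets share arrays and a transcript and are not independent. The suffix _x_at, which Affymetrix gives to probe sets that share probes with other sequences, was carried by 4 of the 6. The remaining pair differed by -0.02 ± 0.11 (1415800_at) and 0.09 ± 0.09 (1415801_at).

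Gjc1 encodes Cx45 and had 2 probe sets, whose differences had opposite signs. The brighter (1447787_x_at) had values of 9.97, 9.76, 9.76 and 9.67 in mdx HRTΔIKKβ replicates 1 to 4, against 9.81, 9.46 and 9.86 in mdx IKKβf/f replicates 1 to 3. mdx IKKβf/f replicate 2, the heart with the lowest atrial score, was the lowest of all 7 hearts. The next lowest (9.67) was mdx HRTΔIKKβ replicate 4, with the highest atrial score (1.05). The highest (9.97) was mdx HRTΔIKKβ replicate 1, with an atrial score of -0.26. The part of atrial tissue in the Gjc1 value was not tested. The difference was 0.08 ± 0.11 (limma, adjusted p = 0.893), and it was -0.04 without mdx IKKβf/f replicate 2. The other probe set (1449094_at) had values of 9.38, 9.37, 9.16 and 9.27 in mdx HRTΔIKKβ replicates 1 to 4, against 9.43, 9.26 and 9.55 in mdx IKKβf/f replicates 1 to 3. Its groups overlapped, with the highest value in mdx IKKβf/f replicate 3, and its difference was -0.12 ± 0.09 (limma, adjusted p = 0.816). Leaving out 1 heart gave -0.20 (mdx IKKβf/f replicate 2 omitted) to -0.051 (mdx IKKβf/f replicate 3 omitted). The correlation between the pair over the 7 hearts was 0.53.

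Gja5, the connexin gene of atria, fast conduction fibres and arteries, was dim and had the smallest unadjusted p of the 11. Its values were 5.31, 5.08, 5.28 and 5.39 in mdx HRTΔIKKβ replicates 1 to 4, against 5.10, 4.95 and 4.95 in mdx IKKβf/f replicates 1 to 3. All mdx HRTΔIKKβ hearts but replicate 2 lay above every control, and that heart lay just below the highest control. Its means were 5.27 ± 0.13 in mdx HRTΔIKKβ hearts (SD, n = 4) and 5.0005 ± 0.08 in mdx IKKβf/f hearts (SD, n = 3), a difference of 0.26 ± 0.08 or 1.20-fold, with a 95% interval from 1.05 to 1.37 (limma, unadjusted p = 0.0138, adjusted p = 0.796). It was the only member under a mean log2 value of 6, where RMA compresses differences, and whether the probe set was above background cannot be read from these values.

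Means of the 8 atrial markers were compared beside Gja5. Every one of the 8 was higher in mdx HRTΔIKKβ hearts, for 7 of them at least 1.5-fold, with a median of 0.94. This size rested on mdx IKKβf/f replicate 2, without which 8 were still higher but only Bmp10 reached 1.5-fold, and the median was 0.32. Myl7, the atrial myosin light chain gene, had values of 12.75, 13.34, 13.68 and 13.84 in mdx HRTΔIKKβ replicates 1 to 4, against 13.55, 10.49 and 12.72 in mdx IKKβf/f replicates 1 to 3. Nppa, the atrial natriuretic peptide gene, differed by 0.68. With mdx IKKβf/f replicate 2 omitted, Myl7 differed by 0.27, against 1.15 with all hearts, and Nppa by 0.24. Both were lowest in mdx IKKβf/f replicate 2, a heart whose Gja5 value (4.95) was the lowest together with that of mdx IKKβf/f replicate 3, and without it the Gja5 difference was 0.24. Gja5 and the atrial score were both highest in mdx HRTΔIKKβ replicate 4. The next highest Gja5 value (5.31) came from mdx HRTΔIKKβ replicate 1, whose atrial score was -0.26. A near score (-0.30) went with 4.95 in mdx IKKβf/f replicate 3, and a score of 0.36 with 5.10 in mdx IKKβf/f replicate 1. Of 7 markers of arterial endothelium, 3 had a higher mean and 4 a lower one, with a median of -0.06, and the score ran from -0.04 to 0.06 in mdx HRTΔIKKβ hearts and from -0.15 to 0.12 in mdx IKKβf/f hearts. The part of atrial or arterial tissue in the Gja5 value was not tested.

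**Figure D2:**
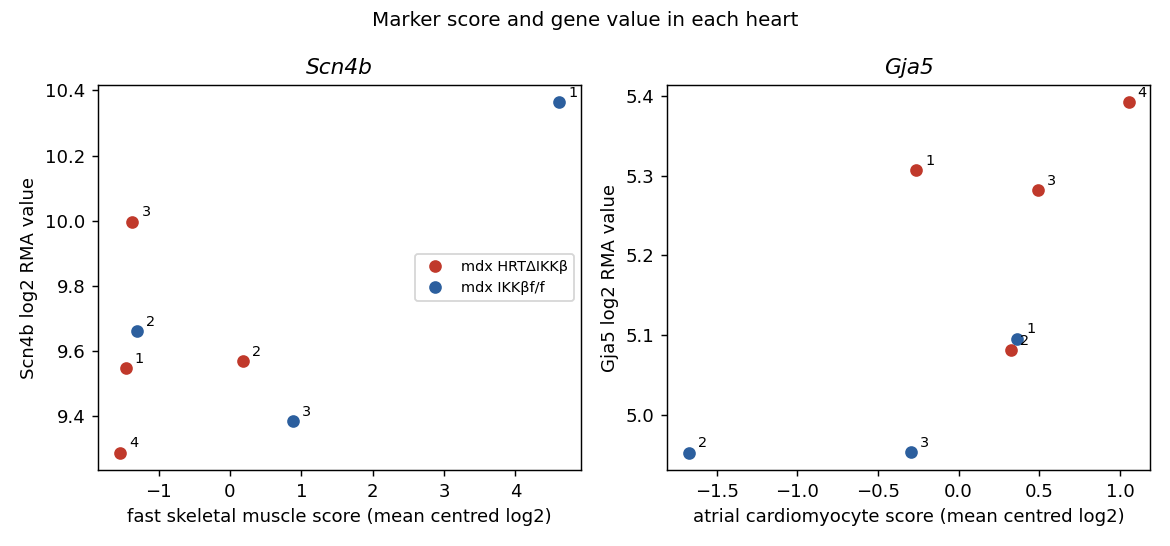
Left, Scn4b log2 RMA value (y axis) against the fast skeletal muscle score (x axis, mean centred log2 value), and right, Gja5 against the atrial cardiomyocyte score, in mdx HRTΔIKKβ (red) and mdx IKKβf/f (blue) hearts with replicate numbers. mdx IKKβf/f replicate 1 stands alone at a skeletal score of 4.61 and mdx IKKβf/f replicate 2 at an atrial score of -1.67.

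Hcn2 encodes a pacemaker channel that is also expressed in neurons. It had values of 6.99, 6.78, 7.00 and 7.06 in mdx HRTΔIKKβ replicates 1 to 4, against 7.20, 7.06 and 7.17 in mdx IKKβf/f replicates 1 to 3. The highest mdx HRTΔIKKβ heart and the lowest control had the same value to 2 decimals, and the other hearts were separated. Mean values were 6.96 ± 0.12 in mdx HRTΔIKKβ hearts (SD, n = 4) and 7.14 ± 0.08 in mdx IKKβf/f hearts (SD, n = 3), a difference of -0.18 ± 0.08, which is a ratio of 0.880 with a 95% interval from 0.775 to 0.999 (limma, unadjusted p = 0.0482, adjusted p = 0.796). The lowest value came from mdx HRTΔIKKβ replicate 2, the heart with the highest lung and airway, lymphocyte and neutrophil, and adipocyte scores, and without it the difference was -0.13 (unadjusted p = 0.0768). Without this heart and mdx IKKβf/f replicate 1, it was -0.10 (limma, unadjusted p = 0.19), an alternative chosen after the scores had been seen. The highest Hcn2 value came from mdx IKKβf/f replicate 1. That heart had the next highest lymphocyte and neutrophil (0.92) and adipocyte (0.22) scores and the lowest lung and airway score (-0.89). The part of other tissue in the Hcn2 value was not tested. Of 7 neuron and Schwann cell markers, 4 had a higher mean and 3 a lower one, with a median of 0.02.

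**Figure D3:**
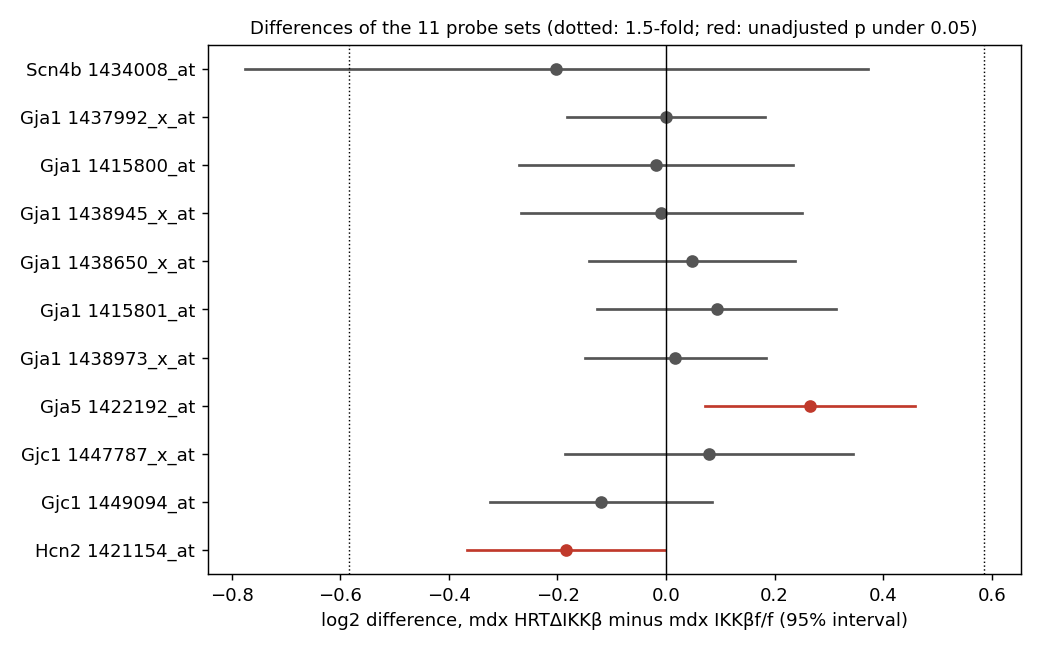
Log2 mean of mdx HRTΔIKKβ hearts less that of mdx IKKβf/f hearts (x axis), with limma's 95% interval for each of the 11 probe sets. Red marks Gja5 (0.26) and Hcn2 (-0.18), which had an unadjusted p under 0.05 in limma, and the Scn4b interval alone crosses the dotted line of a 1.5-fold difference.

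The genes that work with these channels were described from 7 lists that held 76 genes, of which 66 were measured. Before adjustment, limma's p was under 0.05 for 8 (5 higher, 3 lower), or 12.1%, where all 18193 genes gave 6.2% (3.25% higher and 2.95% lower). Each of the 8 had an adjusted p of 0.796. The methods' t-test gave 4 of the 66 a p under 0.05, and 2086 of all 45037 probe sets. Limma gave 4 without mdx HRTΔIKKβ replicate 2 (2019 of all probe sets) and 4 with mdx IKKβf/f replicate 1 omitted (2121). It gave 2 with mdx IKKβf/f replicate 3 omitted (2689) and 10 with mdx HRTΔIKKβ replicate 3 omitted (3362). Each other omission of 1 heart gave 6. Over the alternatives the unadjusted p stayed under 0.05 in 16 of 16 for Slit3, 13 of 16 for Afdn, 11 of 15 for Isl1, 9 of 16 for Smoc2, 8 of 16 for Mef2c, 7 of 16 for Scn7a and Tbx5, and 5 of 15 for Igfbp5. After adjustment 0 passed, as for 0% of all genes. The median difference was -0.01, and it was -0.0056 over all genes, of which 47.7% had a higher and 52.3% a lower mean. The groups did not overlap for 5 of the 66 genes, against 5.67% of all genes. Among sodium channel genes, Scn7a, which encodes a sodium-sensing channel, had values of 9.58, 9.94, 9.59 and 9.82 in mdx HRTΔIKKβ replicates 1 to 4, against 9.49, 9.50 and 9.52 in mdx IKKβf/f replicates 1 to 3. Its groups did not overlap, with a difference of 0.23 ± 0.10 (unadjusted p = 0.0441). The beta subunit genes Scn2b (-0.17 ± 0.09) and Scn3b (0.40 ± 0.25) did not pass, nor did the alpha subunit genes Scn2a (-0.09 ± 0.07) and Scn8a (-0.16 ± 0.13). Scn2a was -0.029 without mdx IKKβf/f replicate 1, Scn8a was -0.019 and Scn2b -0.11 without mdx IKKβf/f replicate 2. The Scn3b difference rested on mdx HRTΔIKKβ replicate 2 (7.03, against 6.02 to 6.03 in the other 3 mdx HRTΔIKKβ hearts), and without it was 0.15.

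Of 12 other connexin and pannexin genes, the mean was higher for 6 and lower for 6, with a median of -0.02, and 0 reached an unadjusted p of 0.05 in limma. Panx1, which encodes a channel that releases ATP, had the smallest p (0.21 ± 0.10, unadjusted p = 0.0764), followed by the dim genes Gjc3 (0.10 ± 0.06) and Gjb6 (-0.11 ± 0.07). Leaving out 1 heart gave 0.14 to 0.27 for Panx1, 0.067 to 0.13 for Gjc3 and -0.13 to -0.065 for Gjb6. In this list 8 of the 12 had a mean under 6. Of 5 other HCN channel and partner genes, 2 had a higher mean and 3 a lower one. Hcn3 differed by -0.08 ± 0.09, Pex5l, a partner that directs HCN channels to the membrane of neurons, by -0.14 ± 0.09, and Cav3, the muscle caveolin gene, by 0.28 ± 0.20. None of the 3 passed, and leaving out 1 heart gave -0.15 to -0.035 for Hcn3, -0.19 to -0.062 for Pex5l and 0.17 to 0.42 for Cav3.

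The intercalated disc is where gap junctions sit beside adherens junctions. Of 16 disc and channel scaffold genes, 5 had a higher mean and 11 a lower one, with a median of -0.02. Afdn, the gene of the junction adaptor afadin, had values of 10.19, 10.35, 10.16 and 10.22 in mdx HRTΔIKKβ replicates 1 to 4, against 10.78, 10.32 and 10.62 in mdx IKKβf/f replicates 1 to 3. It alone in this list passed an unadjusted limma test (-0.34 ± 0.11, adjusted p = 0.796), and its groups overlapped through mdx IKKβf/f replicate 2. Without mdx IKKβf/f replicate 1 the difference was -0.24. Ank2, the ankyrin gene that anchors ion transporters, lay lower without overlap (10.64 to 10.95 in mdx HRTΔIKKβ hearts, against 10.97 to 11.03 in mdx IKKβf/f hearts), with a difference of -0.16 ± 0.09 (unadjusted p = 0.1). Cdh2, the cadherin gene of the disc, differed by -0.13 ± 0.08. Leaving out 1 heart gave -0.20 to -0.099 for Ank2 and -0.17 to -0.076 for Cdh2.

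Among 13 conduction system transcription factor genes, 6 had a higher mean and 7 a lower one, with a median of -0.02. Before adjustment limma put 2 higher and 1 lower. These were Isl1 (0.23 ± 0.08) and Tbx5 (0.15 ± 0.06), known for the sinus node and for the atria and conduction system, and Mef2c, a general cardiac factor (-0.29 ± 0.11, or -0.16 without mdx IKKβf/f replicate 1). Isl1 was dim, with values of 5.59, 5.47, 5.56 and 5.47 in mdx HRTΔIKKβ replicates 1 to 4, against 5.20, 5.21 and 5.47 in mdx IKKβf/f replicates 1 to 3. Of 13 conduction system markers, 9 had a higher mean and 4 a lower one, with a median of 0.07. Slit3 (0.39 ± 0.11, unadjusted p = 0.00975) and Igfbp5 (0.65 ± 0.27) were higher and Smoc2 (-0.26 ± 0.11) lower before adjustment. All 3 encode secreted proteins that non-muscle cells of the heart also make. Slit3 did not overlap between the groups (7.86 to 8.28 in mdx HRTΔIKKβ hearts, against 7.48 to 7.73 in mdx IKKβf/f hearts). Igfbp5 was the only gene of the 66 with a difference of at least 1.5-fold, which 1.45% of all genes had. It had values of 12.09, 12.40, 11.24 and 11.99 in mdx HRTΔIKKβ replicates 1 to 4, against 11.44, 10.92 and 11.47 in mdx IKKβf/f replicates 1 to 3, and without mdx IKKβf/f replicate 2 its difference was 0.48.

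**Figure D4:**
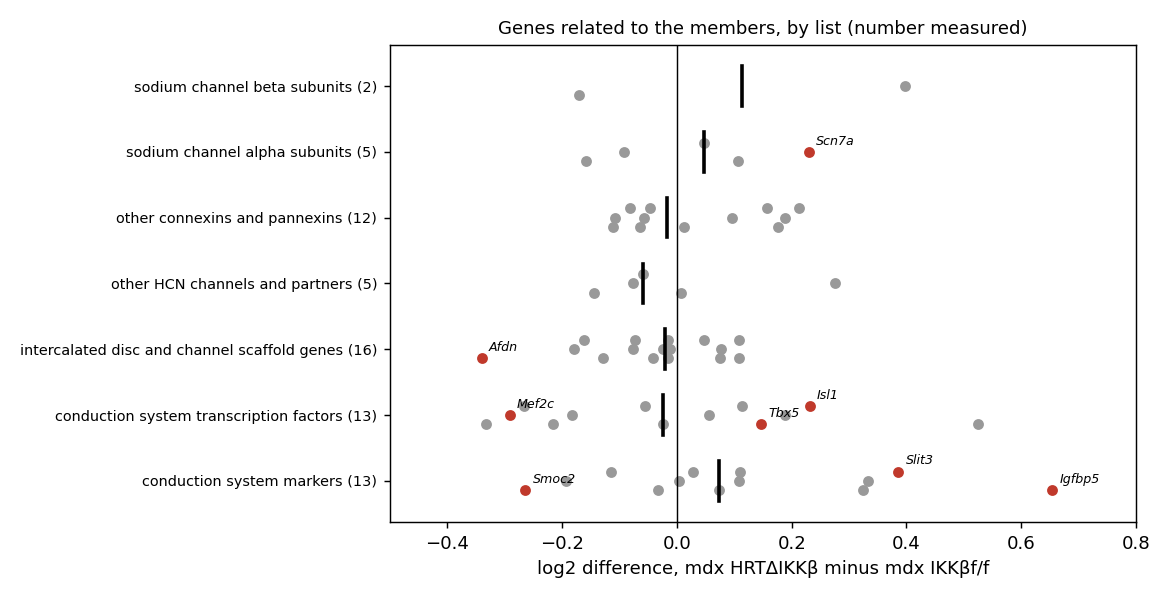
Log2 mean of mdx HRTΔIKKβ hearts less that of mdx IKKβf/f hearts (x axis), for the 66 measured genes in 7 lists (rows, with the number measured). Red points are the 8 genes at an unadjusted p of 0.05 in limma, grey points the others and black bars the list medians, which run from -0.06 to 0.11.

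Between the brightest probe sets of different members, the correlation over the 7 hearts ran from -0.45 (Gja1 and Gja5) to 0.53 (Gja1 and Gjc1). The genes whose pattern was most like that of each member were taken among 10753 genes with a mean of at least 7. They were Napb and Toe1 for Scn4b (0.95 for both), Prr14 (0.98) and Mex3c (0.97) for Gja1, Aldh4a1 and Glrx2 for Gja5 (0.93 for both), Lss (0.98) and Col6a2 (0.97) for Gjc1, and Sardh and Arhgef11 (0.98 for both) for Hcn2. These are Pearson correlations over 7 hearts that share arrays and normalization, and each is the highest of many.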

How the data were processed

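RNA of 7 whole hearts was biotin-labelled and hybridized to Affymetrix Mouse Genome arrays. The authors made the deposited log2 values by RMA, that is background correction, quantile normalization and 1 summary value for each probe set. The study's methods name Partek and, independently, Expression Console. Which of them made the table is not stated. Quantile normalization removes a global shift between arrays, and RMA compresses differences of dim probe sets.

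All 45037 probe sets were tested with limma 3.58.1 in R 4.3.3 (two-sided, Benjamini-Hochberg adjusted, no filter), mdx IKKβf/f being subtracted from mdx HRTΔIKKβ. The platform annotation, which can be old, gave 34945 of them a single gene, 932 several and 9160 none. A gene was represented by its brightest probe set (18193 genes), and 162 of 180 genes in 19 lists were measured. The members and lists were chosen with earlier results of these data known. Lists were described by counts and medians. Named genes were all members, the 3 with the smallest p in each list of related genes, the brightest pair of markers in a cell type list described by its genes, and the 2 genes most correlated with each member. Ikbkb was added to check the labels, and Bmp10 and Ighm after their values were seen. The limma code was tested on simulated data. Nothing in the labels pairs hearts of the same number, and nothing says that they differ in batch. Each p-value sets a group difference against the spread between these hearts, which limma moderates over all probe sets. Alternatives were other scalings, a filter on dim probe sets, other variance models, array weights and a replicate block. Other summaries of a gene, the unpaired t-test and leaving out hearts were further alternatives.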

Additional observations from a re-analysis of the deposited data

Results flagged for a closer look

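In 4 of 31 probe sets examined, 1 mdx HRTΔIKKβ heart stood far from the other 3 by Dixon's criterion. About 1 in 20 is the rate for normal values without ties. In each of the 4, hearts among the other 3 had tied values, which makes a heart stand out more easily. Many of the 31 had also been chosen for a small p, so the count cannot be set against that rate. Scn3b was high in mdx HRTΔIKKβ replicate 2 (7.03), and Scn2a (4.98) and Scn8a (5.69) were low in the same heart, which also had the highest lung and airway, lymphocyte and neutrophil (both 2.52) and adipocyte (1.57) scores. The part of other tissue in these values was not tested. Gjc3 was high in mdx HRTΔIKKβ replicate 3 (5.27), where the other 3 shared 1 value (5.17).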

How the results depend on the processing

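Under each alternative run, 0 probe sets passed the adjusted test except without mdx HRTΔIKKβ replicate 1, where 1 did (range 0 to 1 when leaving out 1 heart). At an unadjusted p of 0.05, leaving out 1 heart gave 2019 to 3362 probe sets, against 2735 with all 7, and there were 1743 without mdx HRTΔIKKβ replicate 2 and mdx IKKβf/f replicate 1, a pair chosen after the data had been seen. Gja5 kept its direction and an unadjusted p under 0.05 in all 16 alternatives (0.00159 to 0.0495, adjusted p 0.639 to 0.969), with 0.22 to 0.33 when 1 heart was left out, and the filter on dim probe sets removed it. Its smallest p came without that pair of hearts. For Gja5 they were the lowest mdx HRTΔIKKβ heart (5.08) and the highest mdx IKKβf/f heart (5.10), so leaving them out ended the overlap. Hcn2 kept its direction in all 17 and an unadjusted p under 0.05 in 8 of them (0.0275 to 0.19, adjusted p 0.672 to 0.969). Leaving out 1 heart gave -0.41 to 0.078 for Scn4b, -0.041 to 0.055 for Gja1, -0.044 to 0.16 for Gjc1, and, for the other Gja1 probe sets, -0.084 to 0.052 (1415800_at), -0.059 to 0.071 (1438945_x_at), -0.0032 to 0.13 (1438650_x_at), 0.047 to 0.16 (1415801_at) and -0.014 to 0.068 (1438973_x_at). Without the pair of hearts the sign also turned for Scn4b (0.088), Gja1 (-0.068), 1438650_x_at (-0.035), 1438973_x_at (-0.028) and Scn2a (0.011). Gja1 was -0.0018 with median-centred arrays, -0.0049 after a second quantile normalization and -0.050 with array weights, which gave -0.023 for 1438973_x_at, and Gjc1 was -0.020 as the mean of its probe sets. The cause was not tested. With the replicate number as a block, 0 probe sets passed after adjustment and 2192 before it, 1415800_at was 0.052, 1438945_x_at was 0.071 and no member's call changed. Deviations of same-numbered hearts correlated at -0.075, -0.377 and -0.036, and the block rests on a shared number only. With 4 and 3 arrays, Scn4b's interval does not exclude a 1.5-fold decrease.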
